A study of Sus scrofa domesticus with 4 samples.

Results

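PEG10, PEG3, DLK1 and NNAT are genes of which mammals can use the copy from only 1 parent, and they were followed here in the anterior pituitary of pregnant and cyclic gilts. They were found on the arrays by name: a probe belonged to a gene when its RefSeq accession, with the version dropped, was listed for that gene in the NCBI table of pig genes. The list was selected on measured values, since it was drawn up with the ratios of pregnant over cyclic gilts on these same arrays in view, so those ratios are given as a description and with no test. Of the 4 genes 3 had a matched probe, with 7 probes in 11 spots, out of 2459 named genes and 43603 probes on the array. PEG3 had no matched probe and was not analysed here.

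The study compared 4 pregnant gilts, mated naturally and killed on days 12 to 13, with 4 gilts killed on days 12 to 13 of the estrous cycle. All 8 were mature Large White x Polish Landrace gilts of about 110 kg from a private farm, and RNA came from the anterior pituitary, so each value is a mean over all cells of the tissue. Each of 4 arrays carried the labelled RNA of 1 pregnant gilt in 1 dye and of 1 cyclic gilt in the other. The sample labels place the pregnant gilt in the green dye Cy3 on arrays 1 and 3 and in the red dye Cy5 on arrays 2 and 4. Ratios below are log2 of pregnant over cyclic, so a negative ratio means a lower level in the pregnant gilt. A level is the log2 of the normalised intensity of 1 gilt. In whole tissue, fewer cells of a type and less RNA per cell cannot be told apart.

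In genomic imprinting a methylation mark set in the egg or the sperm silences the copy from 1 parent, so that the embryo and the adult use mainly the other. PEG10, PEG3, DLK1 and NNAT are expressed from the paternal copy in the species where this was studied. PEG10 descends from the gag and pol genes of a retrotransposon and is needed for the placenta to form. DLK1 is a membrane protein with epidermal growth factor-like repeats, related to the Notch ligands, that can be shed from the cell. It restrains fat cell differentiation and in the pituitary is known mainly from growth hormone cells. NNAT encodes neuronatin, a small protein of the endoplasmic reticulum membrane that is abundant in neuroendocrine cells and bears on calcium stores and hormone secretion. PEG3 encodes a zinc finger protein.

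The samples carried the hormone genes that define the anterior lobe: all 7 listed, PRL, GH1, POMC, CGA, LHB, FSHB and TSHB, had a tested probe. Neural and intermediate lobe genes were also present, with 4 of 6 on the array tested, 2 with a positive and 2 with a negative ratio. The mean level of 3 of them ran from 8.94 to 9.97 in pregnant and from 9.08 to 10.1 in cyclic gilts. That mean leaves out MBP, which lacked a level in some gilts at its representing probe. All 8 tested MBP probes had a negative fitted ratio, from -0.63 to -0.20. No erythrocyte gene of the list had a matched probe. From 47.5% to 67.9% of spots were well above background in Cy3 and 60.7% to 71.8% in Cy5. Array 3 stood apart by a wide spread of its ratios, with an SD of 0.58 over tested probes against 0.28 to 0.33 on the others. On array 4, blocks of spots in which many bright spots were lost held 4943 spots, 11.3% of the array, and are called the dim area. Some spots in the dim area were still well above background. Over all of array 4, 8.52% of spots that were bright elsewhere were lost, against at most 0.00974% on each other array. Of the member spots 2 lay in that area, 1 of DLK1 and 1 of NNAT.

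PEG10 had lower ratios on every array at the probe that represents it. The ratios of A_72_P534124 (NM_001109944) were -0.86, -0.55, -0.31 and -0.83 on arrays 1 to 4. All 4 pairs therefore had the lower level in the pregnant gilt, by the least on array 3. The fitted ratio was -0.64 ± 0.26 (SD, n = 4), or 1.56-fold lower in pregnant gilts. The dye orientation divided these ratios little: the fitted dye effect was -0.05.

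Set out by gilt, the level of PEG10 was 12.76, 12.71, 12.88 and 13.49 in the pregnant gilts of arrays 1 to 4. The cyclic gilts of the same arrays had 13.63, 13.25, 13.19 and 14.32. The 2 groups overlapped through array 4, whose 2 gilts both had the highest level of their group. Outside that array the highest pregnant level, 12.88, lay below the lowest cyclic one, 13.19. Array 4 was set aside here after the levels were seen. The share of all probes that separate in this way was not counted, so nothing is read from it. The group means were 12.96 ± 0.36 and 13.60 ± 0.52 (SD, n = 4 each).

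The second PEG10 probe, A_72_P564724, belongs to the same accession. Its ratios were -0.93, -0.82, -0.31 and -0.77, with a fitted ratio of -0.71 ± 0.27 (SD, n = 4). The levels of the 2 probes, each centred on the mean of its dye, had a Pearson r of 0.99 over the 8 gilts, which share 4 arrays. For the 2 probes of DLK1 r was -0.38 and for those of NNAT -0.33, and in each of these pairs 1 probe had a spot in the dim area of array 4. The third probe, A_72_P174276, was less uniform. It had -0.91 on array 1 and 0.20 on array 3, and the scan software flagged its spots on arrays 2 and 4 as outliers, so it was not tested. With the flagged spots kept it gave -0.33 on array 2 and -0.81 on array 4, for a fitted ratio of -0.46 ± 0.51 (SD, n = 4). On array 3 this probe alone placed PEG10 higher in the pregnant gilt.

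**Figure D1:**
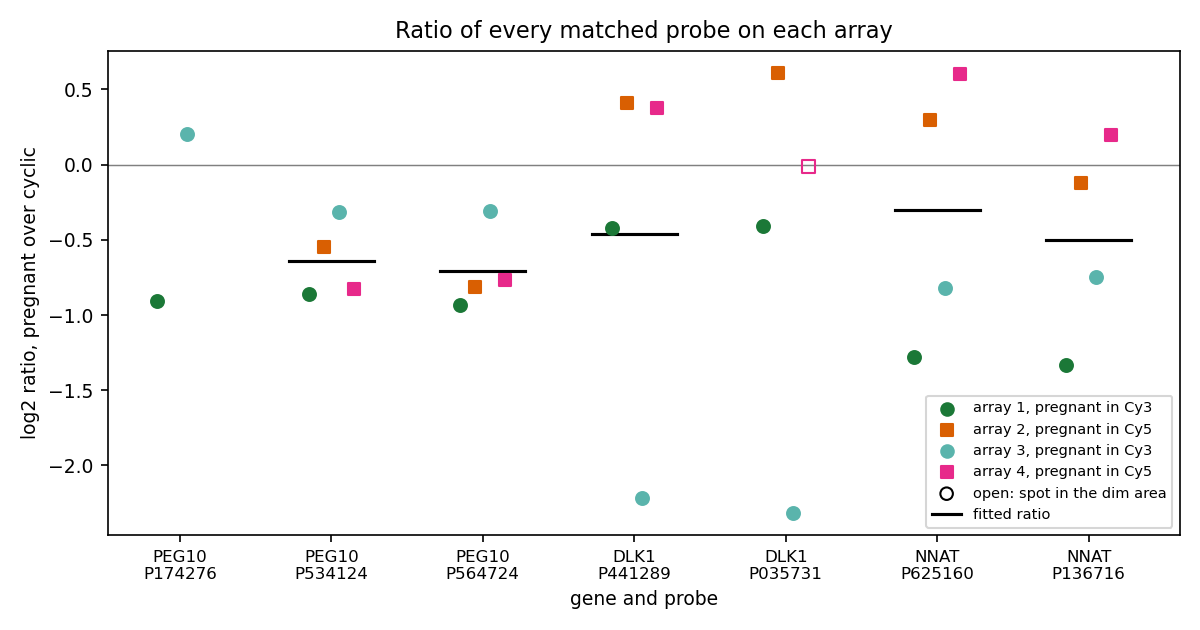
Log2 ratio of pregnant over cyclic (vertical axis) for each of the 7 matched probes (horizontal axis), 1 point per array, circles for arrays with the pregnant gilt in Cy3 and squares for Cy5, with a bar at the fitted ratio of each tested probe. The 2 tested PEG10 probes lie below 0 on the 4 arrays, DLK1 is lowest on array 3, and NNAT splits into circles below and, but for 1 square at -0.12, squares above 0.

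Over the 21624 tested probes of the array limma called 0 (0%) at an adjusted p under 0.05, so neither PEG10 nor any other probe passed, and 3903 (18%) had an unadjusted p under 0.05. Of those 3903, 2256 were higher and 1647 lower in pregnant gilts (2098 and 456 with median centring in place of loess). Without array 1 limma called 3404 probes, without array 3 it called 4, and without array 2 or array 4 it called 0. The unadjusted count was 6859 without array 1, 894 without array 2 and 1713 without array 4. Of probes with 4 ratios, 11.3% were negative on every array, as were 2 of the 6 member probes with 4 ratios, both of PEG10. Probes whose 4 pregnant levels all lay below the 4 cyclic levels made up 1.03%, and no member probe was among them. The ratios of the members were in view when the genes were chosen, so nothing is read from these counts.

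The sign of the PEG10 ratio rests on the dyes as the sample labels give them. The deposited ratios have the direction of these labels, with slopes of -1, 1, -1 and 1 on log2 of Cy5 over Cy3. The labelling protocol can also be read as pregnant RNA in Cy3 on every array, and the fitted ratio is then 0.050, since that reading turns the sign on arrays 2 and 4 and so exchanges the group difference with the dye effect.

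DLK1 varied more between gilts than PEG10, and the largest difference came from a single array. The ratios of A_72_P441289 (NM_001048187) were -0.42, 0.41, -2.21 and 0.38 on arrays 1 to 4. They were thus negative on the 2 arrays with the pregnant gilt in Cy3 and positive on the 2 others, and array 3 lay far below the rest. The fitted ratio was -0.46 ± 1.23 (SD, n = 4), with a dye effect of 0.86. Without array 3 the fitted ratio was -0.01, and without array 1 it was -0.91.

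By gilt, the level of DLK1 was 10.61, 9.61, 9.22 and 11.69 in the pregnant and 11.03, 9.20, 11.43 and 11.31 in the cyclic animals. The groups overlapped over almost their whole range. The 3 lowest levels belonged to the pregnant gilts of arrays 2 and 3 and the cyclic gilt of array 2. The group means were 10.28 ± 1.10 and 10.74 ± 1.04 (SD, n = 4 each), a difference smaller than either SD. The low DLK1 level on array 2 was thus shared by its 2 gilts, while on array 3 only the pregnant gilt was low.

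A second DLK1 probe, A_72_P035731, gave the same picture on 3 arrays. Its ratios were -0.41, 0.61 and -2.32 on arrays 1 to 3, beside -0.42, 0.41 and -2.21 at the first probe. Its spot on array 4 lay in the dim area, at signals of 32 and 43 that were not well above background, and was below the filter. On the 3 other arrays its fitted ratio was -0.38 ± 1.49 (SD, n = 3).

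The growth hormone gene GH1, made by the cells in which DLK1 is best known, split over the arrays with the same signs. Its ratios were -0.94, 1.14, -2.39 and 2.16, with a fitted ratio of -0.01 ± 2.05 (SD, n = 4; limma adjusted p = 0.991). On arrays 1 and 3 both genes were thus lower and on arrays 2 and 4 both higher in the pregnant gilt. These 2 pairs of arrays differ in dye orientation as well as in their gilts, which cannot be told apart.

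NNAT ratios divided by dye orientation. At A_72_P625160 (NM_001122990) the ratios were -1.28, 0.30, -0.82 and 0.60 on arrays 1 to 4. The gilt in Cy5 had the higher value on every array, whichever group it came from. The fitted ratio was -0.30 ± 0.89 (SD, n = 4) with a dye effect of 0.75. It was -0.18 without array 1 and -0.08 with median centring in place of loess. Arrays 1 and 3 carry other gilts than arrays 2 and 4, so a dye effect and a difference between gilts cannot be told apart. The 7 hormone genes did not share one pattern over the arrays. CGA, the shared subunit of the glycoprotein hormones, had the signs of NNAT at this probe, with -1.19, 0.11, -1.04 and 1.06 (fitted ratio -0.27 ± 1.06, SD, n = 4). PRL, which encodes prolactin, had -1.75, 0.01, -1.42 and -0.41 (fitted ratio -0.89 ± 0.83, SD, n = 4; limma adjusted p = 0.235), and was lowest on arrays 1 and 3. LHB, the luteinizing hormone subunit, had -0.89, -0.03, -0.15 and 0.28. Others ran differently: POMC, the corticotropin precursor, had -0.67, -0.01, 0.78 and 0.55, TSHB, the thyrotropin subunit, -0.15, -4.85, 6.30 and -1.36, and FSHB, the follicle-stimulating hormone subunit, -3.36, -1.99 and -0.32 on arrays 2 to 4.

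By gilt, NNAT stood at 15.22, 16.12, 15.67 and 16.64 in the pregnant and 16.50, 15.82, 16.49 and 16.04 in the cyclic animals. The pregnant gilts held both the lowest and the highest level of the 8, and the groups overlapped. The means were 15.91 ± 0.61 and 16.21 ± 0.34 (SD, n = 4 each).

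**Figure D2:**
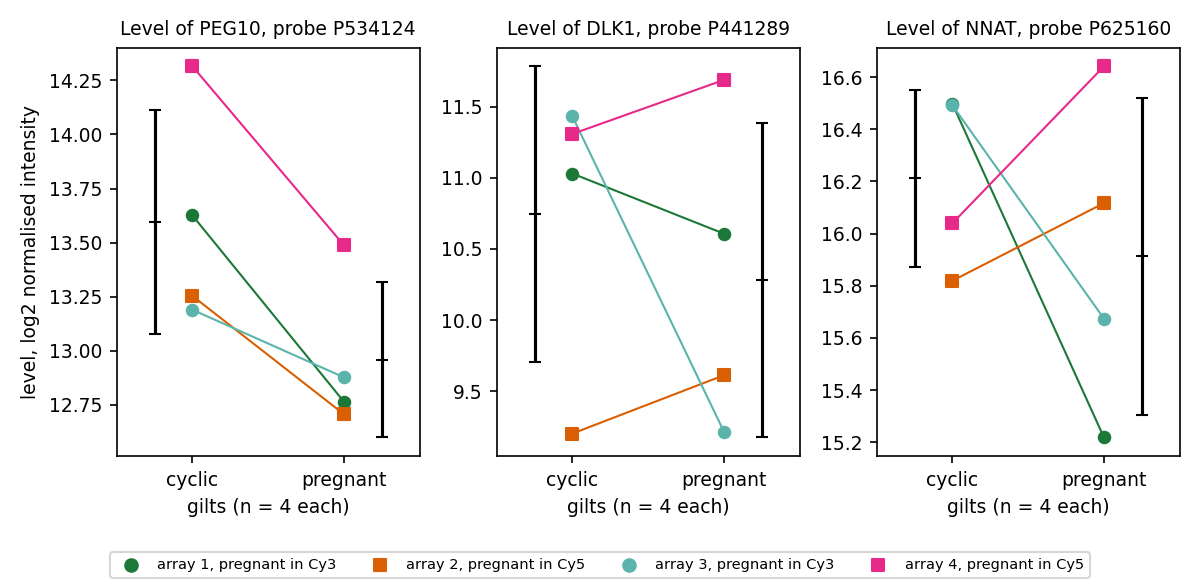
Level of PEG10, DLK1 and NNAT (vertical axes, log2 normalised intensity, a separate scale for each) in the 4 cyclic and 4 pregnant gilts, with a line joining the 2 gilts of each array and, beside them, mean ± SD over 4 gilts. All 4 PEG10 lines fall towards the pregnant gilt, while for DLK1 and NNAT the lines of arrays 1 and 3 fall and those of arrays 2 and 4 rise.

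The other NNAT probe, A_72_P136716, is printed 5 times on the array and shows the error of a single spot. Its 5 spots spanned -1.64 to -1.16 on array 1, -0.20 to -0.04 on array 2, -0.88 to -0.54 on array 3 and 0.09 to 0.32 on array 4. The ranges of the 4 arrays did not overlap, so spots within an array differed less than the arrays did. Averaged by array the ratios were -1.33, -0.12, -0.74 and 0.20, with a fitted ratio of -0.50 ± 0.68 (SD, n = 4) and a dye effect of 0.54. On array 2 the 2 NNAT probes differed in sign, at 0.30 and -0.12.

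The same 5 spots show what the dim area did. On array 4 the spot inside it read 517.5 for the pregnant and 225 for the cyclic gilt. Its unflagged twins outside read 101789 to 180021 and 24782 to 45687.5. The signal fell in both dyes together, and the ratio of the dim spot, 0.09, lay just below the 0.18 to 0.32 of the others. With that spot left out the fitted ratio of the probe was -0.49, against -0.50 with it, and its mean level in the pregnant gilt of array 4 was 16.60 in place of 14.75.

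**Figure D3:**
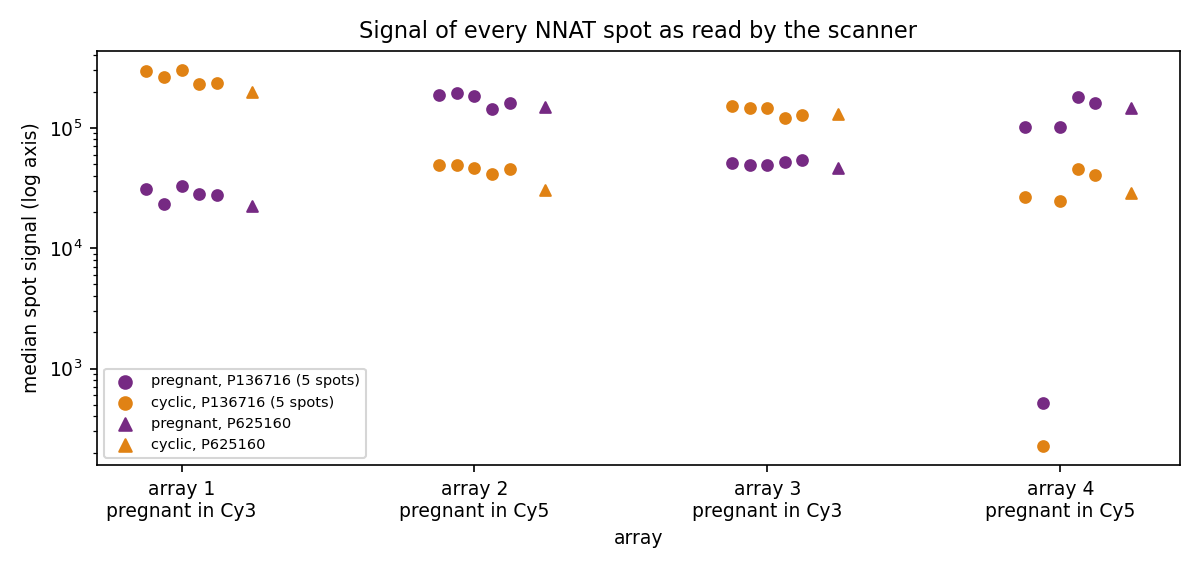
Median spot signal as read by the scanner (vertical axis, log scale) for each NNAT spot on each array, purple for the pregnant and orange for the cyclic gilt, circles for the probe printed 5 times and triangles for the other probe. The gilt in Cy5 is brighter on every array, and on array 4 a single spot, in the dim area, falls to 517.5 and 225.

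Other genes reported as imprinted in at least 1 mammal were read from a list of 55, of which 24 had a matched probe and 14 a tested one. Of these 14, 10 had a negative and 4 a positive ratio, or 71.4% negative beside 56.2% of the 1744 named genes tested. Their median ratio was -0.14, beside -0.02 over named genes. By limma 0 of the 14 passed over all probes, and 2 (14.3%) had an unadjusted p under 0.05, beside 13.8% of named genes, so that share was near the background. Without array 3, 6 of 11 were negative.

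Among these 14 genes DIRAS3, a Ras-related growth inhibitor expressed from the paternal copy, had the most negative ratio at its representing probe, -0.48 ± 0.42 (SD, n = 3; limma adjusted p = 0.238). Arrays 1 to 3 gave -0.68, -0.13 and -0.96. Its other tested probe, A_72_P088431, had -0.62, -0.29, -1.03 and -0.39, with a fitted ratio of -0.58. IGF2, a fetal growth factor, had -0.18 ± 0.37 (SD, n = 4; limma adjusted p = 0.400), and all 5 of its probes were negative, from -0.40 to -0.03. Its array 3 ratio of -0.67 was the lowest of the 4, the array on which DLK1 was lowest too. MEST, a hydrolase-like protein of growing mesoderm, had -0.07 ± 0.70 (SD, n = 3; limma adjusted p = 0.864), and its 2 probes differed in sign.

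In the order of RefSeq genes on the pig assembly Sscrofa11.1, SGCE, a sarcoglycan gene, lies next to PEG10. It had ratios of -0.14, 0.05, -0.38 and 0.01. Its fitted ratio was -0.11 ± 0.20 (SD, n = 4; limma adjusted p = 0.508). The other tested SGCE probe had 0.07, -0.26, -0.54 and -0.16, with a fitted ratio of -0.22. Both fitted ratios were nearer 0 than that of PEG10, and the difference between the 2 genes was not tested. PON2, a lactone hydrolase of the same chromosomal cluster, had -0.47 ± 0.60 (SD, n = 4; limma adjusted p = 0.321), with -1.32 on array 3. The other tested PON2 probe had a fitted ratio of -0.73, on 3 arrays, lower than at either DIRAS3 probe. PON1, a relative of PON2 within 5 genes of PEG10, had 0.18 ± 0.19 (SD, n = 4; limma adjusted p = 0.409). RPN2, a subunit of the enzyme that adds sugar chains to proteins, was the 1 tested gene within 5 of NNAT, at -0.13 ± 0.08 (SD, n = 3; limma adjusted p = 0.545). Of the genes within 5 of DLK1, MEG3 and RTL1 had a probe but none was tested.

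CALCR, the calcitonin receptor, had -0.37 ± 0.37 (SD, n = 4; limma adjusted p = 0.244) and was positive only on array 3. CD81, a tetraspanin, had -0.22 ± 0.15 (SD, n = 4; limma adjusted p = 0.289) and GRB10, an adaptor that restrains insulin and growth factor receptors, -0.16 ± 0.10 (SD, n = 4; limma adjusted p = 0.368). Of the 11 genes with 4 ratios at the representing probe these 2, CD81 and GRB10, were negative there on every array. Among other tested probes the same held for the second of DIRAS3, for 1 of AXL and for 2 of GNAS. AXL, a receptor kinase, had -0.18 ± 0.27 (SD, n = 3), and GATM, an enzyme of creatine synthesis, -0.03 ± 0.46 (SD, n = 4). GATM, like IGF2, was lowest on array 3, at -0.68.

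The positive ratios were small. DCN, the matrix proteoglycan decorin, had 0.22 ± 0.53 (SD, n = 4; limma adjusted p = 0.623), GNAS, which encodes the stimulatory G protein subunit used by hypothalamic hormone receptors, 0.08 ± 0.28, and SLC22A2, a cation transporter, 0.07 ± 0.10. DIO3, which inactivates thyroid hormone and lies in the domain of DLK1, had 0.00 ± 0.10 (SD, n = 4; limma adjusted p = 0.991). The probes of SLC22A2 and DIO3 were well above background in 4 pregnant but 2 cyclic gilts. The 16 GNAS probes ran from -0.46 to 0.14 and 12 of them were negative, against the sign of the probe that represents the gene.

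**Figure D4:**
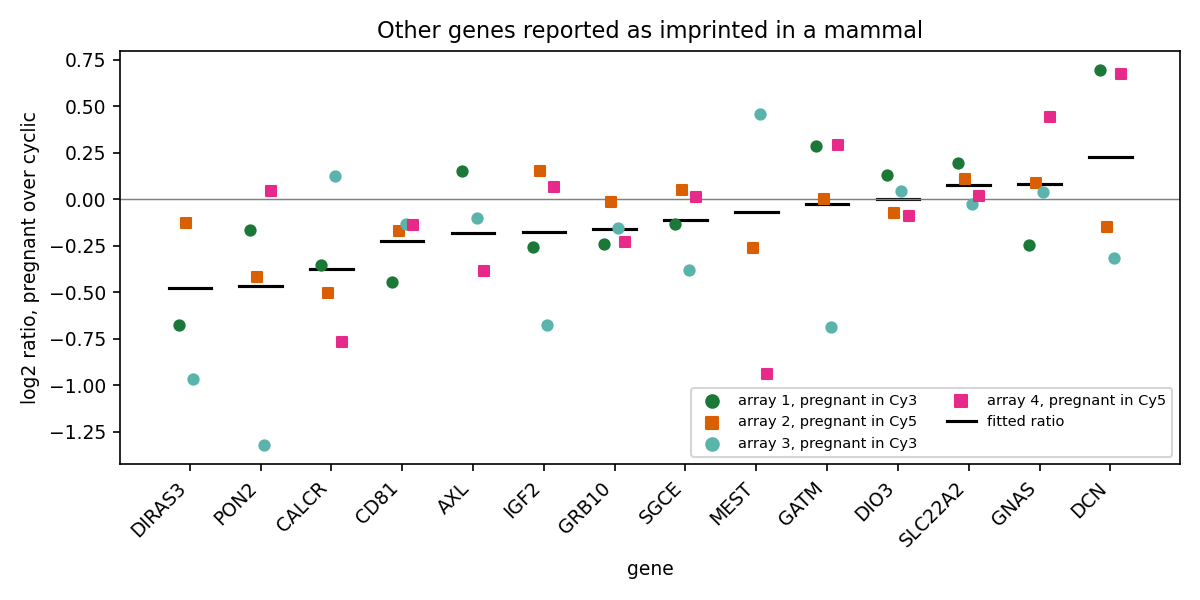
Log2 ratio of pregnant over cyclic (vertical axis) of the 14 tested genes of the imprinted list (horizontal axis, ordered by fitted ratio), 1 point per array with circles for pregnant in Cy3 and squares for Cy5, and a bar at the fitted ratio. Only CD81 and GRB10 have 4 points, all below 0, and fitted ratios run from -0.48 to 0.22.

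Enzymes and factors that keep imprinting marks were thinly covered, with 3 of 20 tested. DNMT3A, a DNA methyltransferase that sets new methylation, had 0.45 ± 0.39 (SD, n = 3; limma adjusted p = 0.245), but its other probe was negative, at -0.05. DNMT1, which copies methylation after replication, had -0.06 ± 0.11 (SD, n = 3). Its 5 tested probes ran from -0.30 to 0.34, 4 of them negative. ZFP57, a zinc finger protein that guards imprinted regions, had 0.12 ± 0.18 (SD, n = 4). In this list 0 passed limma over all probes and 1, DNMT3A, had an unadjusted p under 0.05, beside 13.8% of named genes. With 3 tested genes nothing is read from that count.

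In the Notch pathway, which DLK1 can modulate, 7 of 27 genes were tested, 2 positive and 5 negative. By limma 0 passed over all probes and 2, ADAM17 and PSEN2, had an unadjusted p under 0.05. Over the 1744 named genes tested 13.8% had such a p and 56.2% a negative ratio. ADAM17, a protease that sheds DLK1 and other membrane proteins, had 0.60 ± 0.22 (SD, n = 4; limma adjusted p = 0.235), while its 2 other probes were negative, down to -0.09. The probe with 0.60 was well above background in 4 pregnant but 3 cyclic gilts, so it passed the filter through the pregnant group alone, and its p is no support for a difference. PSEN2, a subunit of the gamma-secretase that cuts Notch, had -0.28 ± 0.20, and the Notch target HEY1 -0.24 ± 0.58 (SD, n = 4 each). DLK2, the close relative of DLK1, had -0.07 ± 0.14 (SD, n = 4), with ratios between -0.23 and 0.10. On array 3 DLK2 thus had -0.23 where DLK1 had -2.21. The DLK2 probe was dim, at mean levels of 7.03 in pregnant and 7.10 in cyclic gilts, against 10.28 and 10.74 for DLK1. It was well above background in 4 pregnant but 3 cyclic gilts, so nothing is read from the difference between the 2 genes.

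Among genes of endoplasmic reticulum calcium and the signal peptidase, the organelle of neuronatin, 7 of 21 were tested, 1 positive and 6 negative. By limma 0 passed over all probes and 1, ATP2A2, had an unadjusted p under 0.05. The shares over named genes were 13.8% with such a p and 56.2% negative. ATP2A2, the calcium pump that fills the reticulum, had -0.46 ± 0.35 (SD, n = 4; limma adjusted p = 0.235), with -0.40, -0.72, 0.01 and -0.73 on arrays 1 to 4. All 5 of its tested probes had a negative fitted ratio, from -0.70 to -0.46, and the other 4 were below 0 on array 3 too. PLN, an inhibitor of that pump, had -0.24 ± 0.37, and STIM1, a sensor of stored calcium, -0.19 ± 0.09 (SD, n = 4 each).

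Partners of PEG3 in apoptosis and NF-kappaB signalling had 4 tested genes of 11, 2 in each direction. By limma 0 passed and 2, RELA and NFKBIA, had an unadjusted p under 0.05, beside 13.8% of named genes. With 4 tested genes nothing is read from that count. RELA, an NF-kappaB subunit, had -0.28 ± 0.05 and its inhibitor NFKBIA 0.47 ± 0.51 (SD, n = 4 each), the latter with its array 4 spot in the dim area. The other tested NFKBIA probe had a fitted ratio of 0.09, on 3 arrays. Of the regulators and partners of PEG10, 5 of 12 were tested, 4 positive and 1 negative. By limma 0 passed and 2, SMAD3 and ENG, had an unadjusted p under 0.05, beside 13.8% of named genes. With 5 tested genes nothing is read from that count. MYC, a transcription factor that can drive PEG10, had 0.11 ± 0.73, from -0.89 on array 4 to 0.86 on array 3. SMAD3, a transducer of TGF-beta signals, had 0.37 ± 0.12, and ENG, a co-receptor of that pathway and an endothelial marker, -0.35 ± 0.35 (SD, n = 4 each).

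Markers of other cells are given beside the members, and their part in the results was not tested. Proliferation genes, of which 4 of 10 were tested, were all negative, with a median of -0.75. Their mean level ran from 6.76 to 7.17 in pregnant and from 7.08 to 8.42 in cyclic gilts. The highest was the cyclic gilt of array 3, where DLK1 had its lowest ratio but PEG10 its ratio nearest 0, -0.31. On array 2 their level was also lower in the pregnant gilt, 6.76 against 7.47, where DLK1 had a positive ratio of 0.41. Of 4 tested stromal or pericyte genes 3 had a ratio below 0, and their mean level was 9.72 to 9.99 in pregnant and 9.65 to 10.2 in cyclic gilts. Of 4 endothelial genes 3 did, at mean levels of 8.41 to 8.82 and 8.65 to 9.08. All 4 tested genes of folliculostellate or stem cells did, at mean levels of 8.77 to 9.19 and 8.98 to 9.43. Mean levels are over the genes with a level in all 8 gilts. Counts of signs here use the representing probe of each gene, and 56.2% of named genes were negative. PECAM1, the positive endothelial gene at 0.20, had 2 other tested probes, at -0.26 and -0.21. Of genes counted as negative, CDH1 of the folliculostellate list had another tested probe at 0.04 and FBN1 of the stromal list 1 at 0.11. Lineage factors were positive for 3 of 3, led by POU1F1, the factor of growth hormone, prolactin and thyrotropin cells, at 0.46 ± 0.23 (SD, n = 4; limma adjusted p = 0.235).

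Of the 1489 other named genes with a level in all 8 gilts, those most like each member were taken by Pearson's r of the level, centred on the mean of its dye. Nearest to PEG10 were GDF15 (r = 0.98), AQP3 (r = 0.96) and LATS2 (r = 0.95). Nearest to DLK1 were IGFBP7 (r = 0.99), FAM210B (r = 0.94) and IGF1 (r = 0.94), and nearest to NNAT were IKBKB (r = 0.98), NCOA3 (r = 0.98) and IL4R (r = 0.95). The 8 levels come in pairs that share an array, so a high or low array enters r. A gene alike in this sense need not have a like ratio: those of GDF15 lay between -0.11 and -0.04, far from the -0.86 to -0.31 of PEG10. IGFBP7, with 0.03, -0.20, -0.94 and 0.10, was like DLK1 lowest on array 3.

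**Figure D5:**
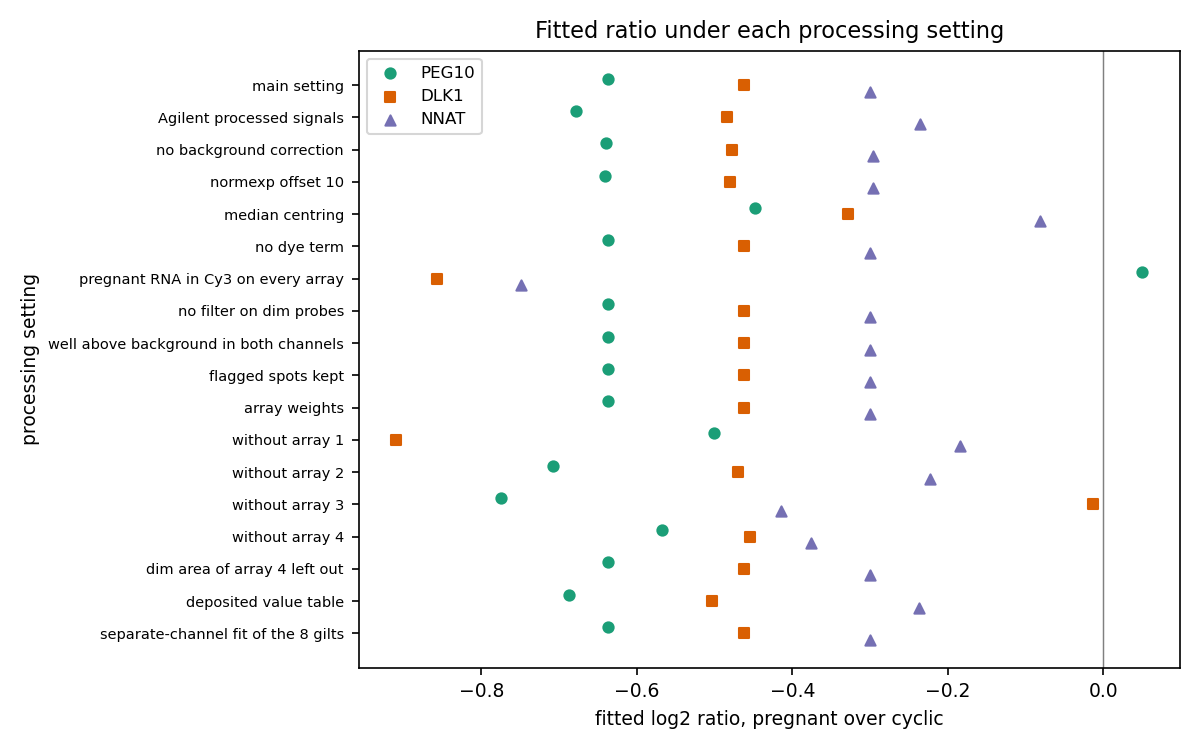
Fitted log2 ratio of pregnant over cyclic (horizontal axis) of PEG10, DLK1 and NNAT under each processing setting (vertical axis). PEG10 lies between -0.77 and -0.45 wherever the dyes are as labelled and at 0.050 under the other reading, and DLK1 runs from -0.91 without array 1 to -0.01 without array 3.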

How the data were processed

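Labelled RNA, 825 ng of cRNA per dye, of 4 pregnant and 4 cyclic gilts lay on 4 two-colour Agilent arrays (design 026440), 1 pair per array. The deposited scanner files hold, per the file headers, spot and background intensity of both dyes from Agilent Feature Extraction 10.7.3.1, with flags and processed signals. The deposited value table holds log2 ratios. It matched log2 of processed Cy5 over Cy3 with slopes of -1, 1, -1 and 1, which is the direction the labels give the dyes. The medians of its 4 columns, 0.07, -0.08, -0.18 and -0.17, show no centring.

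Median signals were background-corrected (normexp, offset 50), normalised by loess, cleared of spots with outlier flags and averaged by probe. Levels were also quantile-normalised on mean intensity. Tested probes were well above background on all 4 arrays in a group's channel, with at least 3 ratios: 21624 probes, 3440 of them named, for 1744 genes. Limma 3.58.1 in R 4.3.3 fitted the group difference and a dye effect, with Benjamini-Hochberg adjustment, and was tested on simulated data. With 3 ratios the fitted value is not the plain mean. A gene is represented by its brightest tested probe. The number of arrays limits the precision. The dim area takes in every block of 10 by 5 spots in which 25% or more of the bright spots were lost in both dyes. Members, lists and the naming rule (all member probes, up to 4 genes with the smallest p per list, every measured imprinted and hormone gene, 3 most alike genes) were chosen with earlier results of these data known. The text leaves out some genes that this rule takes. Fold and ratio values compare gilts, which the labels call 8 individuals.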

Additional observations from a re-analysis of the deposited data

Results flagged for a closer look

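Dixon's test for 1 distant value was run on 29 sets of 4, from the member probes and the other imprinted genes. It marked 2 sets, where about 1 in 20, or 1.45, come up by chance. At the PEG10 probe A_72_P564724 the pregnant gilt of array 4 had a level of 10.34, against 9.36 to 9.47 in the 3 other pregnant gilts. The cyclic gilt of array 4 was also the highest of its group there, at 11.11 against 9.78 to 10.39. The ratio of that array, -0.77, lay within the range of the other arrays. For CD81 the log2 ratio on array 1 was -0.44, against -0.17 to -0.14 on the other arrays.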

How the results depend on the processing

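With the dyes as labelled, the fitted ratio was negative in 17 of 17 alternatives for PEG10 (-0.77 to -0.45), in 16 of 16 for DLK1 (-0.91 to -0.01) and in 17 of 17 for NNAT (-0.50 to -0.08, the last with median centring). With pregnant RNA in Cy3 on every array PEG10 turned to 0.050, DLK1 was -0.86 and NNAT -0.75. Leaving out an array gave -0.77 to -0.50 for PEG10, -0.91 to -0.01 for DLK1 and -0.41 to -0.18 for NNAT. The count of 0 called probes in limma became 1 with no background correction, with offset 10 and with array weights, 2 with no dye term, 1047 in a separate-channel fit of the 8 gilts, and 0 to 3404 on leaving out an array, the latter without array 1. The 3903 probes at an unadjusted p under 0.05 became 2554 with median centring, 1118 under the other dye reading and 894 (without array 2) to 6859 (without array 1). Of them 57.8% were higher in pregnant gilts, 82.1% with median centring and 39.3% under the other dye reading. The 10 negative imprinted genes became 6 to 10 on leaving out an array, and the 2 with an unadjusted p under 0.05 became 1 with Agilent processed signals, with no dye term or under the other dye reading, 0 with median centring, 4 in the separate-channel fit and 0 to 3 on leaving out an array. The cause was not tested. Fewer genes are tested without an array, 11 without array 3, and such fits have 1 residual degree of freedom. The ratio sets the 2 gilts of an array against each other, so the main fit is paired by array. No other label pairs the gilts.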

Other observations

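Of the 10 imprinted genes with a matched but untested probe, 6 were not well above background on all arrays of a group and 4, MEG3, NDN, PLAGL1 and BLCAP, were well above it in all 8 channels but kept at most 2 of 4 ratios after outlier flags. With flagged spots kept, MEG3, the noncoding RNA made from the maternal copy of the DLK1 domain, had ratios of 0.14, -0.06, 1.29 and 0.34. On array 3 it was thus higher in the pregnant gilt, where DLK1 had -2.21. Its fitted ratio was 0.43 ± 0.60 (SD, n = 4; limma adjusted p = 0.335). NDN, a MAGE family protein made from the paternal copy, had -0.70, -0.55, -0.40 and -0.08, negative on the 4 arrays, with a fitted ratio of -0.43 ± 0.27 (SD, n = 4; limma adjusted p = 0.218), though all 4 of its spots were flagged. PLAGL1, a zinc finger regulator of other imprinted genes, had 0.03 ± 0.23 (SD, n = 4; limma adjusted p = 0.908). BLCAP, the gene that holds NNAT within it, had 0.03, 0.11 and 0.04 at its 3 probes. Most of these values rest on spots that the scan software marked as uneven or deviant, though the MEG3 spot of array 3 was not among them.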
